A study of Mus musculus with 2 samples.

Results

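The genes described here are 8 integrin chains and the TGF-beta gene Tgfb1, read in single γδ T cells of the mouse colon. They were taken by name as 9 of the 32285 gene rows that both count matrices hold: the α chains Itgae, Itga1, Itga4 and Itgav, the β chains Itgb1, Itgb5, Itgb7 and Itgb8, and Tgfb1. The study compared 1 droplet 3' library of γδ T lymphocytes from normal colon tissue (IEL) with 1 from a colon tumor (TIL), both from C57BL/6J mice aged 18 to 20 weeks. No genetic change or treatment is named for either group, how the tumor arose is not given in the sources used here, and the number of mice behind a library is not given either. The protocol text names tumor tissue for both libraries and describes a Percoll interface of mixed cells, with no sort or gate.

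The IEL library held 9398 barcodes with 69414155 UMIs (unique molecular identifiers, 1 per captured transcript), and the TIL library held 13245 barcodes with 94953893 UMIs. After filtering, 9128 IEL and 12407 TIL cells remained, of which 9088 IEL and 10993 TIL cells lay in clusters with γδ T cell markers and are called γδ T-like. The 8 γδ T markers summed to 4914 CPM (UMIs per 1000000 UMIs) in IEL and 9490 CPM in TIL γδ T-like cells. The label was not fully borne out by the receptor genes: the αβ receptor transcript Trac had a UMI in 7072 of the 9088 IEL and in 4028 of the 10993 TIL cells, and its part in the results is given below by a cell-wise rule. Erythroid transcripts summed to 1221 CPM in TIL γδ T-like cells against 0.190 CPM in IEL cells, and heat shock transcripts to 101.9 against 1835 CPM. Myeloid markers summed to 21.8 against 7.07 CPM, and of the 8, Adgre1 was at 0 in IEL cells. The libraries shared 33 cell barcodes. With 1 library per group no test across samples was possible, so a difference is one between single libraries, and bracketed 95% intervals hold for counting error alone.

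Integrins are heterodimers of an α and a β chain, and a chain reaches the cell surface only with a partner. In the gut, αEβ7 (Itgae with Itgb7) binds E-cadherin on epithelial cells, α4β7 (Itga4 with Itgb7) binds MAdCAM-1 on vessels of the intestine, α4β1 binds VCAM-1, and α1β1 (Itga1 with Itgb1) binds collagen. Of the β chains taken here, β1, β5 and β8 pair with the αv chain (Itgav). Pairs of αv with β chains outside the genes named above were not read. Integrins with αv bind the latent form of TGF-beta, the product of Tgfb1, and αvβ8 in particular releases active TGF-beta from it. TGF-beta in turn is known to induce Itgae in T cells.

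The genes lie at separate sites of GRCm38. Itgae spans 73090583 to 73147446 on the plus strand of chromosome 11, Itga1 114953096 to 115101964 on the minus strand of chromosome 13, and Itga4 79255426 to 79333123 on the plus strand of chromosome 2. Itgb7 spans 102215995 to 102231944 on the minus strand of chromosome 15, Itgb1 128685654 to 128733200 on the plus strand of chromosome 8, and Tgfb1 25687002 to 25705077 on the plus strand of chromosome 7. Itgav lies at 83724397 to 83806916 on the plus strand of chromosome 2, Itgb5 at 33829665 to 33949338 on the plus strand of chromosome 16, and Itgb8 at 119158022 to 119238802 on the minus strand of chromosome 12. Itga1 shares its locus with Pelo on the same strand, and over all γδ T-like cells 12748 UMIs were counted for Itga1 and 3791 for Pelo. Promoter sequences from RefSeq (GRCm38.p6) were found for 8 of the 9 genes. The 250 bases before the start site are shown for the 4 chains of the α1β1 and α4β7 pairs, because each pair joins a chain with more transcript in one library to a chain with more in the other. Capitals mark the letters CAGAC or GTCTG, the core that Smad proteins (the transcription factors of TGF-beta signalling) recognise, and TGTGGT or ACCACA, the Runx core.
Itga1 (minus strand, chr13:115101965-115102214): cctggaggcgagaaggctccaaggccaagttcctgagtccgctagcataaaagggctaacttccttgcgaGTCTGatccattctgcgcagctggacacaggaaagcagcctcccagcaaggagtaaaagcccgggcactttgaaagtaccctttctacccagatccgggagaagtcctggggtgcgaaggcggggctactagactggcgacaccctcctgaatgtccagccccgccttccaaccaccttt
Itgb1 (plus strand, chr8:128685404-128685653): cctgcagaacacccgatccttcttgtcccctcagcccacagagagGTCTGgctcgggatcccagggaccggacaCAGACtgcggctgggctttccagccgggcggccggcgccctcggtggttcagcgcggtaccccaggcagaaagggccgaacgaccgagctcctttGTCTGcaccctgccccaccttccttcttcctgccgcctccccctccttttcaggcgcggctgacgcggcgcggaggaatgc
Itga4 (plus strand, chr2:79255176-79255425): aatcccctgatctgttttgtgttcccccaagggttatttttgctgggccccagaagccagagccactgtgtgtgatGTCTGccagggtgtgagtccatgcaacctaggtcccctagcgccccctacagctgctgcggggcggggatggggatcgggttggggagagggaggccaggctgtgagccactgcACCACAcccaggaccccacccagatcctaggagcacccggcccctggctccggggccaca
Itgb7 (minus strand, chr15:102231936-102232185): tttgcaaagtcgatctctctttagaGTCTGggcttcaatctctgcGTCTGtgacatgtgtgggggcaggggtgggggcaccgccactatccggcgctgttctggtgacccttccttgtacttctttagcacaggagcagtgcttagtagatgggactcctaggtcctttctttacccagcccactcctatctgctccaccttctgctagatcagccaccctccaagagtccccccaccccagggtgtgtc
The Itgb1 promoter held the Smad letters at 3 places (-205, -176 and -81 from the start site), Itgb7 at 2 (-225 and -205), and Itga1 and Itga4 at 1 each (-180 and -174). The Runx letters were found in Itga4 alone among the 8 promoters, at -60. Such letters are common: over both strands of 300 bases, 49.6% of 32851 promoters held the Smad core and 16.8% the Runx core. The promoters of Itgav, Itgb5 and Tgfb1 held neither.

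Tumor γδ T-like cells carried less transcript of the tissue-retention chains Itgae and Itga1 and more of Itgav, Itgb1, Itgb5, Itgb7 and Tgfb1. A gene is counted as higher or lower when it reached 20 CPM in either library, differed at least 2-fold and had an interval of the ratio without 1. Of 6335 genes at that level, 11.5% were higher and 14.6% lower in TIL cells, and their median log2 ratio was -0.10. Against this background, 8 of the 9 genes reached 20 CPM, of which 5 were higher, 2 lower and 1 within 2-fold.

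Among the α chains, Itgae, the αE chain of αEβ7, stood at 290.2 CPM (286 to 294) in the IEL library and at 100.5 CPM (98.4 to 102.8) in the TIL library. It was 2.89-fold lower in the tumor library (log2 -1.53, -1.57 to -1.49). Itga1 stood at 178 CPM (175 to 181) in the IEL and 7.14 CPM (6.57 to 7.75) in the TIL library, a log2 ratio of -4.64 (-4.76 to -4.52). The collagen-binding chain thus differed by 24.9-fold. Itga4, the chain of gut homing receptors, stood at 78.6 CPM in the IEL and 43.1 CPM in the TIL library, and the log2 ratio of -0.87 (-0.93 to -0.81) stayed within 2-fold. Itgav stood at 84.1 CPM (82.0 to 86.3) in the IEL and 262 CPM (259 to 266) in the TIL library, 3.12-fold higher in the tumor library.

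All β chains with measurable levels were higher in TIL cells. Itgb7 stood at 187 CPM (184 to 191) in the IEL and 478 CPM (473 to 483) in the TIL library, a log2 ratio of 1.35 (1.32 to 1.38). It thus went the other way from its partner Itgae. Itgb1, the most widely shared β chain, stood at 14.4 CPM (13.5 to 15.3) in the IEL and 79.0 CPM (77.1 to 81.0) in the TIL library, 5.49-fold higher. Itgb5, a partner of αv alone, stood at 1.32 CPM (90 UMIs) in the IEL and 29.8 CPM (2410 UMIs) in the TIL library, a log2 ratio of 4.50 (4.20 to 4.82). Itgb8 was barely present, with 65 UMIs in IEL and 9 UMIs in TIL cells, which is 0.950 CPM (0.733 to 1.21) and 0.111 CPM (0.0509 to 0.211). At under 20 CPM in both it was not counted, and its log2 ratio of -3.09 had an interval from -4.29 to -2.08. Tgfb1 stood at 157 CPM (154 to 159.6) in the IEL and 523 CPM (518 to 528) in the TIL library, 3.34-fold higher in the tumor library with a log2 ratio of 1.74.

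**Figure D1:**
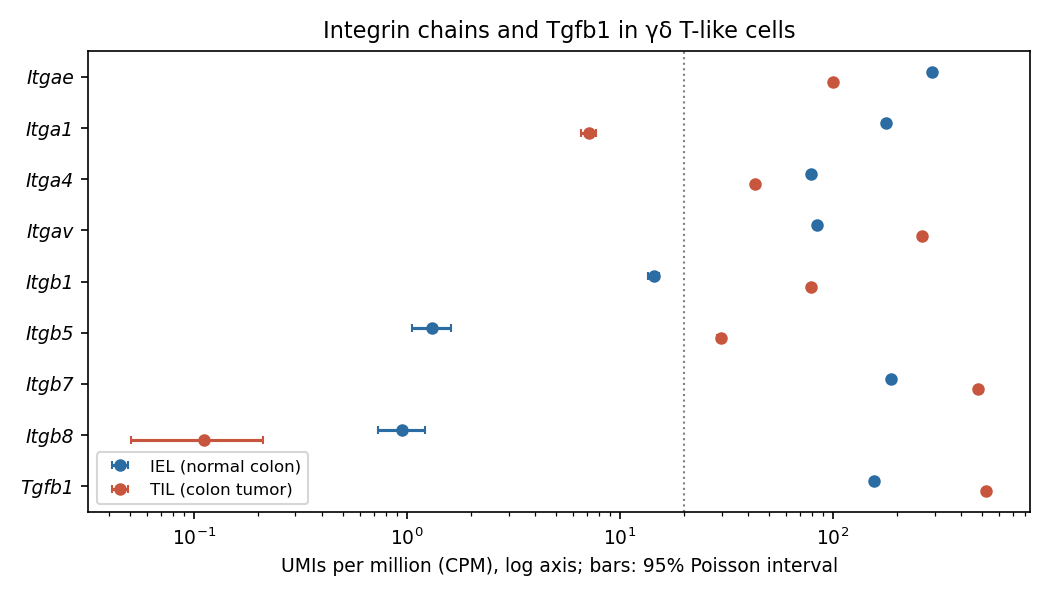
Level of each gene in γδ T-like cells, as CPM on a log axis, with 1 point per library (IEL 9088 cells, TIL 10993 cells), 95% Poisson intervals as bars and a dotted line at 20 CPM. The IEL point lies to the right for Itgae, Itga1, Itga4 and Itgb8, and the TIL point for the other 5 genes.

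The libraries held different kinds of γδ T cell, and which cells were compared changed the direction or size of several ratios. Cytotoxic-like cells, with transcripts such as Gzma and Ccl5, were 8887 of the IEL γδ T-like cells (97.8%) and 404 of the TIL cells (3.68%). IL-17-like cells, with transcripts such as Il17a, were 9732 of the TIL cells (88.5%) and 78 of the IEL cells, and recirculating-like cells, with Ccr7 and S1pr1, were 713 of the TIL cells (6.49%). The 9 genes and their pathway genes were kept out of the clustering that drew these subsets. TIL cytotoxic-like cells lay mostly in cluster 14 (306 cells), while IEL cytotoxic-like cells lay mostly in clusters 2, 5, 7, 8 and 9 (between 1047 and 2277 cells each), so a cluster may mark a library rather than a type. On the cytotoxic markers, clusters 2, 5, 8 and 9 scored 1.60 to 1.75 (mean log2 level over the average γδ T-like cluster). Clusters 7, 12 and 17 scored only 0.25 to 0.28, and were named cytotoxic-like because this was the highest of their subset scores.

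In cytotoxic-like cells alone, 3.66% of 6113 measured genes were higher and 5.27% lower in TIL cells. Of the 9 genes, 6 were measured and only Itgav passed. The 404 TIL cells compared here leave out tumor clusters 11 and 15 (411 and 288 cells), which were not named. Cluster 15 scored 1.64 on the cytotoxic markers, beside 1.74 in cluster 14, and the ratios were not redone with these clusters. Itgav stood at 84.4 CPM in the IEL and 257 CPM in the TIL cells of this subset, a log2 ratio of 1.61 (1.48 to 1.73), close to its value of 1.64 over all γδ T-like cells. Itgae stood at 293 CPM in the IEL and 566 CPM (535 to 599) in the TIL cells, a log2 ratio of 0.95 (0.87 to 1.04), so its direction was opposite to that over all cells but it did not reach 2-fold. Tgfb1 had the same ratio, 0.95 (0.83 to 1.06), at 154 against 297 CPM. Of the measured genes, these 3 were furthest above their IEL level in TIL cytotoxic-like cells.
Itga1 was at 180.4 and 202 CPM (log2 0.16, 0.02 to 0.30), Itga4 at 78.7 and 75.3 CPM (-0.06, -0.29 to 0.16) and Itgb7 at 185 and 182 CPM (-0.02, -0.17 to 0.12). Itgb1, at 14.1 and 13.5 CPM, and Itgb5, at 1.09 and 0.902 CPM, did not differ beyond counting error, on 30 and 2 TIL UMIs. The IEL Itgb1 value mixes unlike clusters: cluster 7 was at 29.7 CPM and held 411 of the 931 UMIs. Clusters 2, 5, 8 and 9 were at 7.30 to 10.3 CPM. Of the 30 TIL UMIs, 22 came from cluster 14, so the IEL and TIL sums differ in make-up. Itgb5 was at 32.6 CPM in the tumor library's IL-17-like cells. The part of free RNA in these values was not tested.

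**Figure D2:**
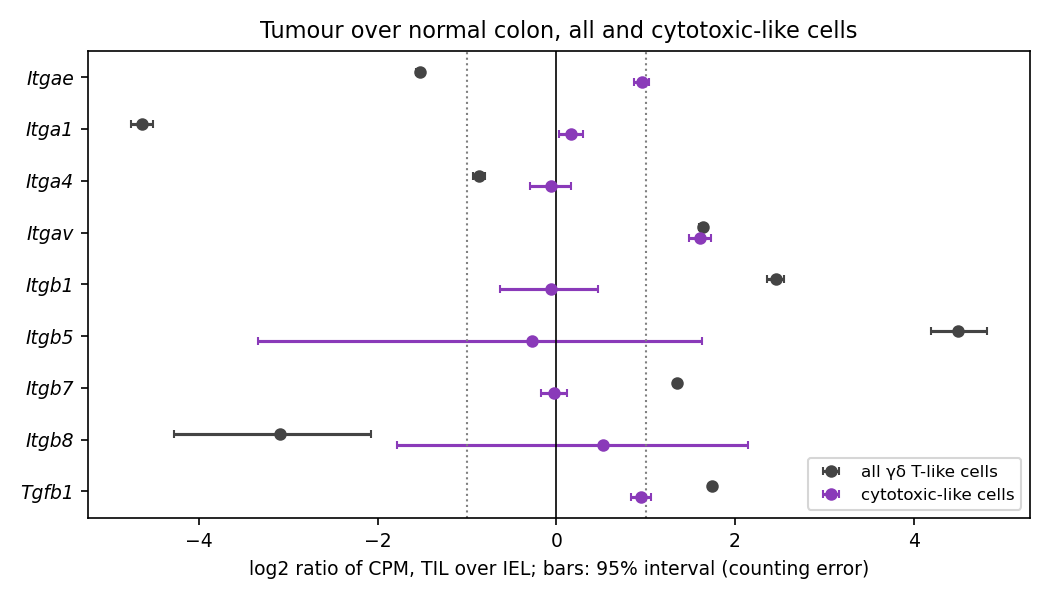
Log2 ratio of TIL over IEL for each gene, over all γδ T-like cells (dark) and over cytotoxic-like cells (purple), with 95% intervals and dotted lines at a 2-fold difference. The paired points lie together for Itgav (1.64 and 1.61) and on opposite sides of 0 for Itgae (-1.53 and 0.95).

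Within the tumor library, where cells share one preparation, IL-17-like cells had a different set of chains from cytotoxic-like cells. Of 6066 measured genes, 12.0% were higher and 12.3% lower in IL-17-like cells. Itga1 was at 1.29 CPM in IL-17-like against 202 CPM in cytotoxic-like cells (log2 -7.30, -7.63 to -6.97), Itgae at 91.3 against 566 CPM (-2.63) and Itga4 at 36.0 against 75.3 CPM (-1.06, -1.29 to -0.83). Itgb5 was at 32.6 against 0.902 CPM (5.17, on 2 UMIs in the cytotoxic-like cells), Itgb1 at 83.9 against 13.5 CPM (2.63, 2.12 to 3.20) and Itgb7 at 505 against 182 CPM (1.47, 1.33 to 1.62). Itgav (279 against 257 CPM) and Tgfb1 (555 against 297 CPM, log2 0.90) were within 2-fold. The 78 IEL cells that were IL-17-like had Itgb7 at 332 CPM, Tgfb1 at 339 CPM, Itgb5 at 22.7 CPM (12.7 to 37.5) and Itgae at 169.6 CPM (139.7 to 204). Itga1 was at 83.3 CPM (62.8 to 108) in those IEL cells. It had a UMI in 26.9% of them, and in 3.85% (0.80 to 10.8) once each cell was thinned to 2000 UMIs.

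Recirculating-like cells of the tumor carried more Itga4 than the other named subsets, and less of the other measured chains than IL-17-like cells. Against TIL IL-17-like cells, where 7.94% of 5728 measured genes were higher and 23.2% lower, Itga4 was at 153 CPM (141 to 166) against 36.0 CPM, a log2 ratio of 2.09 (1.96 to 2.22). The other measured chains were lower: Itgae at 24.5 CPM, Itgav at 37.2 CPM, Itgb1 at 36.4 CPM, Itgb7 at 192 CPM and Itgb5 at 0.260 CPM (1 UMI), as was Tgfb1 at 148 CPM. The median log2 ratio of all genes in that comparison was -0.36, and the ratios of these 6 genes lay between -6.97 and -1.20.

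Single clusters of IL-17-like cells differed further. Cluster 4 (2202 TIL cells, led by 5830411N06Rik and Stmn2) had the highest Itgb1 of the 17 cluster-by-library units of γδ T-like cells, at 185 CPM (178 to 192), and the lowest Itga4, at 9.60 CPM (8.03 to 11.4). Cluster 3 (2234 TIL cells, led by Nrn1 and Mmp9) had Itgb1 at 35.7 CPM (32.9 to 38.6) and Itga4 at 81.0 CPM (76.8 to 85.3), and more Itgb5, 54.7 against 18.8 CPM. Cluster 6, led by Il17f and Batf3, had Itgb1 at 77.6 CPM and Itga4 at 16.0 CPM. Itgb1 was at 66.4 CPM in cluster 1 and 69.1 CPM in cluster 16, where Itga4 was at 29.5 and 83.3 CPM, so these clusters had close Itgb1 levels and different Itga4 levels. Over these 5 clusters Itgb7 ranged from 335 to 727 CPM and Tgfb1 from 269.8 to 607 CPM, with the lowest Tgfb1 in cluster 16.
In the order of the 17 units, the highest Itgae was in TIL cluster 14 at 611 CPM (574 to 649.8), clear of IEL cluster 8 at 342 CPM (329 to 354), and the lowest in TIL cluster 10 at 24.5 CPM. For Itga1 the top units, TIL cluster 14 at 223 CPM and IEL cluster 9 at 210.03 CPM, had overlapping intervals, and all TIL clusters except 14 of γδ T-like cells lay below 4 CPM. Neighbours in the order had overlapping intervals in 10 of 16 steps for Itgae, Itgb7 and Tgfb1, 11 for Itga4, 13 for Itga1, Itgav and Itgb1, 14 for Itgb5 and all 16 for Itgb8. Among IEL clusters, cluster 2 (led by Themis and Scin) had the most Itgb7 of the cytotoxic-like units, 275 CPM, and the least Itgav and Tgfb1, 46.0 and 103 CPM.

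**Figure D3:**
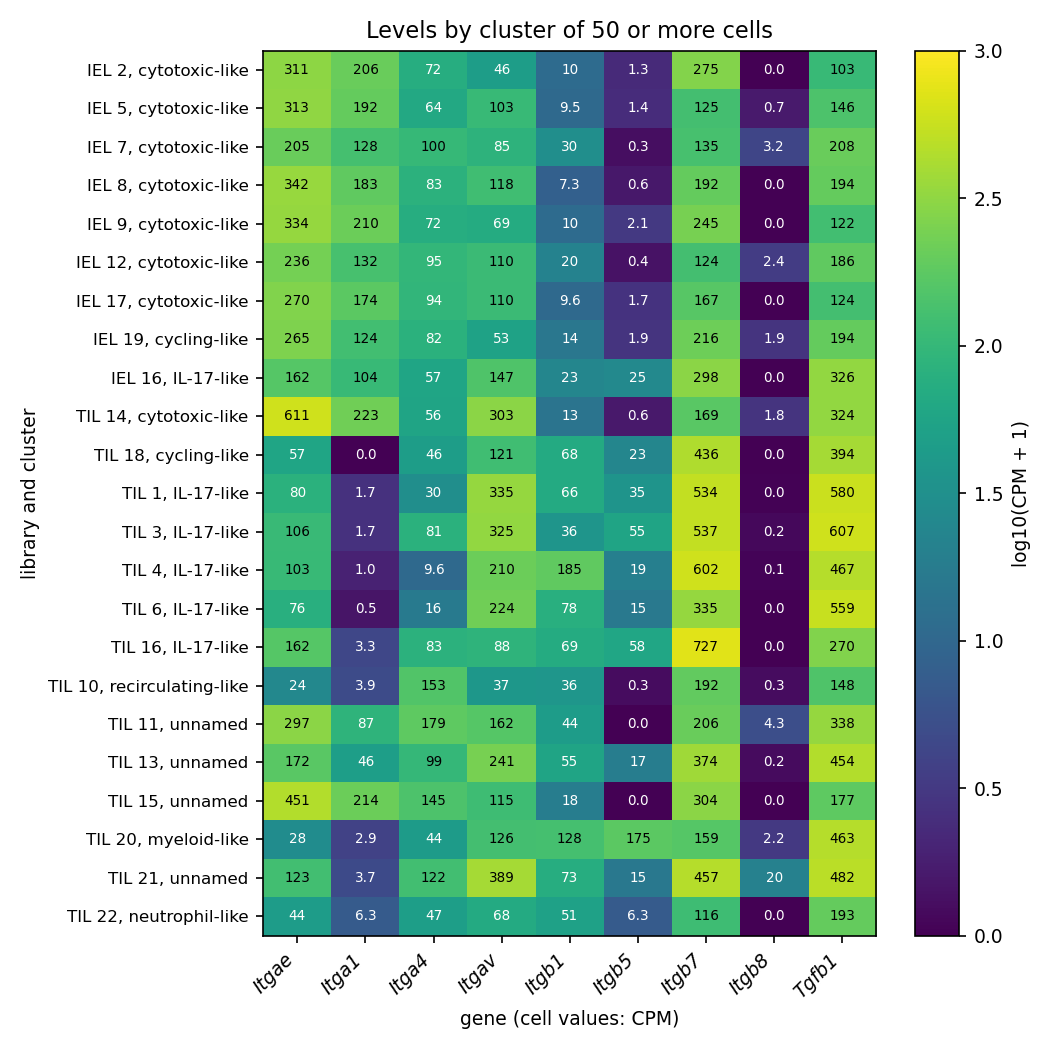
Level of each gene (columns, CPM printed in each cell and coloured as log10(CPM + 1)) in each cluster and library with at least 50 cells (rows), with 6 TIL clusters outside the γδ T-like class at the foot. Itgae and Itga1 are high in every IEL row and in TIL rows 14, 11 and 15, while Itgb1 peaks in TIL row 4 and Itgb5 in the TIL IL-17-like rows and the myeloid-like row.

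Clusters 11 and 15 of the tumor were not named, because Kit in one and Cd8b1 and Cdh1 in the other were among their 10 leading genes. Cluster 11 (411 cells, led by Gzmc and Xcl1) had Itgae at 297 CPM, Itga1 at 87.4 CPM and the highest Itga4 of any unit, 179 CPM (164 to 195). Cluster 15 (288 cells, led by Gzmk) had Itgae at 451 CPM, Itga1 at 214 CPM, Itga4 at 145 CPM and Itgb7 at 304 CPM. With both counted as γδ T-like, all 9 genes kept their direction and their side of the 2-fold rule over all γδ T-like cells. The comparison of cytotoxic-like cells was not redone with them. In both clusters Itga4 was above the 75.3 CPM of the TIL cytotoxic-like cells.

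The share of cells with a transcript followed the levels. After thinning each cell to 2000 UMIs, Itgae had a UMI in 42.0% of 9019 IEL cells (41.0 to 43.0) and in 16.2% of 10943 TIL cells (15.5 to 16.9). Without thinning the shares were 79.5% and 37.1%, so the thinned share leaves out cells in which the gene was counted. Itga1 was found in 28.8% of IEL and 1.27% of TIL cells, and Itga4 in 14.0% and 7.36%. Itgav was found in 13.6% of IEL and 38.1% of TIL cells, Itgb7 in 29.7% and 56.1%, and Itgb1 in 2.63% and 12.97%. Itgb5 was found in 0.277% and 5.79%, and Tgfb1 in 23.2% and 57.1%. Unthinned, these TIL shares were 69.9% for Itgav, 86.2% for Itgb7, 33.2% for Itgb1, 17.3% for Itgb5 and 84.6% for Tgfb1.
Free RNA can place a transcript in a droplet whose cell does not make it. In TIL myeloid-like cells (median depth 10700 UMIs, against 6403 in TIL γδ T-like cells), Itgae was found in 4.08% and Itga1 in 1.02% of thinned cells. With 98 myeloid-like cells, 1 of them with Itga1, the intervals were 1.12 to 10.1% for Itgae and 0.0258 to 5.55% for Itga1. The Itga1 share in TIL IL-17-like cells, 0.186%, and the Itgae share in recirculating-like cells, 4.53%, were not above these intervals. The Itgae share in TIL IL-17-like cells, 14.9% (14.2 to 15.6), and the Itga1 share in TIL cytotoxic-like cells, 28.8%, were above them. The part of free RNA in these shares was not tested, nor whether myeloid-like cells express the genes themselves. Itgb7 was found in 7.04% of TIL neutrophil-like and 23.5% of myeloid-like cells, below its 58.9% in IL-17-like cells. Tgfb1 was found in 58.2% of myeloid-like cells (47.8 to 68.1) beside 60.1% of IL-17-like cells, and the part of free RNA in the Tgfb1 level was not tested. Itgb5 was at 175 CPM in the myeloid-like cells, above every γδ T-like unit, and the part of free myeloid RNA in the TIL level was not tested.

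Whether cells held both chains of a known pair was read as the share of thinned cells with a UMI of each, beside the product of the 2 single shares. A shared transcript does not show a protein pair. For αEβ7, both Itgae and Itgb7 were found in 12.9% of IEL cells (12.2 to 13.6), against a product of 12.5%, and in 9.41% of TIL cells (8.87 to 9.97), against 9.06%. Unthinned, 54.7% of IEL and 33.0% of TIL cells had both. In TIL cytotoxic-like cells the share was 20.8% (16.9 to 25.1), the highest of the subsets, and in TIL IL-17-like cells it was 9.54% (8.97 to 10.1). Detection of one chain barely depended on the other in IEL cells, where Itgb7 was found in 30.6% of cells with Itgae and 29.1% of cells without. In TIL IL-17-like cells Itgb7 was found in 64.0% of cells with Itgae (61.5 to 66.5) and in 58.1% without (57.0 to 59.1), and in cluster 6 the shares were 53.6% (47.4 to 59.8) and 41.9% (39.5 to 44.3).

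The α4 pairs were rarer. Itga4 and Itgb7 were found together in 3.89% of IEL and 3.86% of TIL cells, and in 8.06% of recirculating-like cells (6.16 to 10.3). Itga4 and Itgb1 were found together in 0.388% of IEL and 0.704% of TIL cells, below the TIL product of 0.954%, and in 2.26% of recirculating-like cells (1.30 to 3.65). For α1β1, Itga1 and Itgb1 were found together in 0.743% (0.576 to 0.942) of IEL cells. In the tumor library they were together in 0.0274% of cells, 3 of 10943, where the product was 0.165%. Of the tumor library's cells with Itga1, 61.9% also held Itgae.

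The pairs of αv with β1 and β5 were found more in the tumor library. Itgav and Itgb1 were found together in 0.322% of IEL and 4.29% of TIL cells (3.92 to 4.69), and Itgav and Itgb5 in 0.0333% of IEL (3 cells) and 2.42% of TIL cells (2.14 to 2.73). Unthinned, the TIL shares were 23.3% and 13.2%. In TIL IL-17-like cells Itgb1 was found less in cells with Itgav, 11.6% (10.6 to 12.7), than in those without, 15.4% (14.5 to 16.4). Within cluster 4, where Itgb1 was highest, the shares were 18.9% and 25.5%, and within cluster 3 they were 6.74% and 6.72%. Itgb5 was found in 6.71% of IL-17-like cells with Itgav and 6.32% without. The αvβ8 pair was found more in IEL γδ T-like cells: unthinned, 30 of 9088 IEL and 6 of 10993 TIL cells held both transcripts. Of the γδ T-like cells with Itgb8, these were 30 of 54 in the IEL and 6 of 8 in the TIL library. Over all kept cells, 31 IEL and 24 TIL cells held both.
Itgav and Tgfb1 were found together in 3.66% of IEL and 23.7% of TIL cells (22.9 to 24.5), above the TIL product of 21.7%. In TIL cytotoxic-like cells, Tgfb1 was found in 52.7% of cells with Itgav (44.3 to 61.1) and in 33.6% of cells without (27.8 to 39.8). In TIL IL-17-like cells the shares were 63.0% and 58.2%, and in IEL cells 26.9% and 22.6%.

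**Figure D4:**
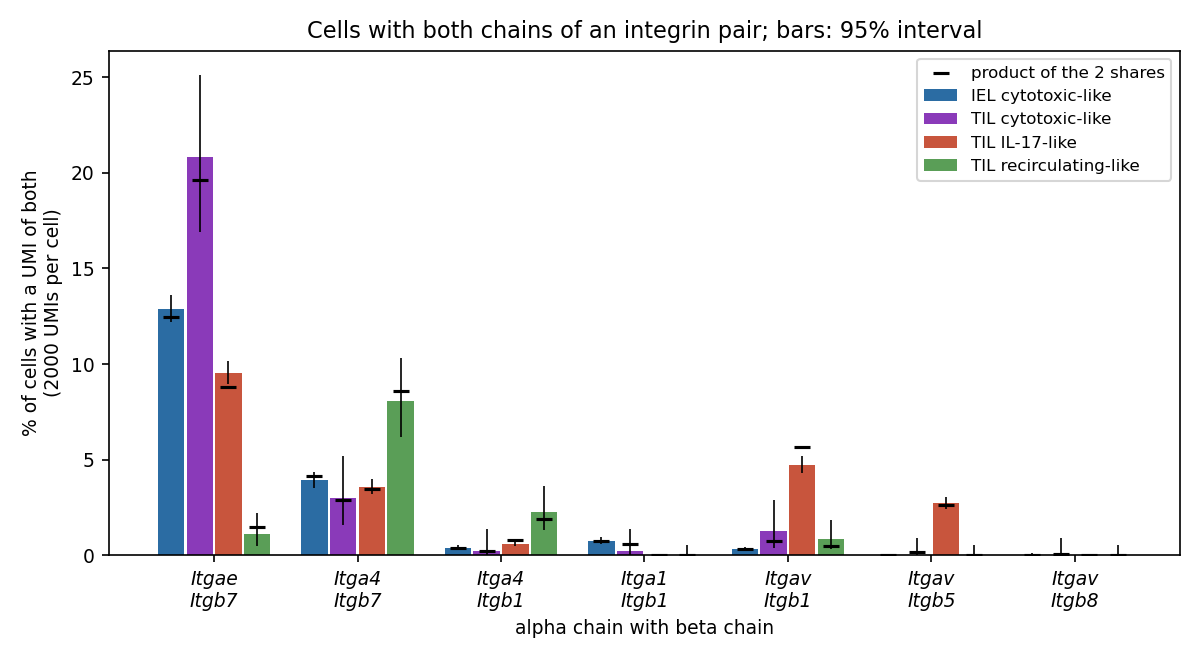
Share of cells with a UMI of both chains of each of 7 known pairs, after thinning to 2000 UMIs per cell, in 4 subsets (bars, with 95% exact binomial intervals), with the product of the single shares as a black dash. Itgae with Itgb7 reaches 20.8% in TIL cytotoxic-like cells, Itga4 with Itgb7 8.06% in recirculating-like cells, and Itgav with Itgb1 4.73% in IL-17-like cells, below its dash of 5.64%.

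Fewer α chain UMIs were counted per Itgb7 UMI in the tumor library. There were 1.55 Itgae UMIs per Itgb7 UMI in IEL (1.51 to 1.58) and 0.210 in TIL γδ T-like cells (0.205 to 0.215). Since capture can differ between genes, the ratio is read only as a shift between groups of cells. It was 3.11 in TIL cytotoxic-like (2.78 to 3.49), 1.58 in IEL cytotoxic-like, 0.181 in IL-17-like and 0.128 in recirculating-like cells, whose Itgae share was not above that of myeloid-like cells within counting error. Itga4 UMIs per Itgb7 UMI were 0.419 in IEL and 0.0902 in TIL cells, but 0.799 in recirculating-like cells. Of thinned cells with Itgb7, neither Itgae nor Itga4 was found in 49.5% of IEL and 77.2% of TIL cells, against 21.6% of TIL cytotoxic-like cells. In recirculating-like cells with Itgb7, 24.3% had Itga4 as the only α chain found.

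**Figure D5:**
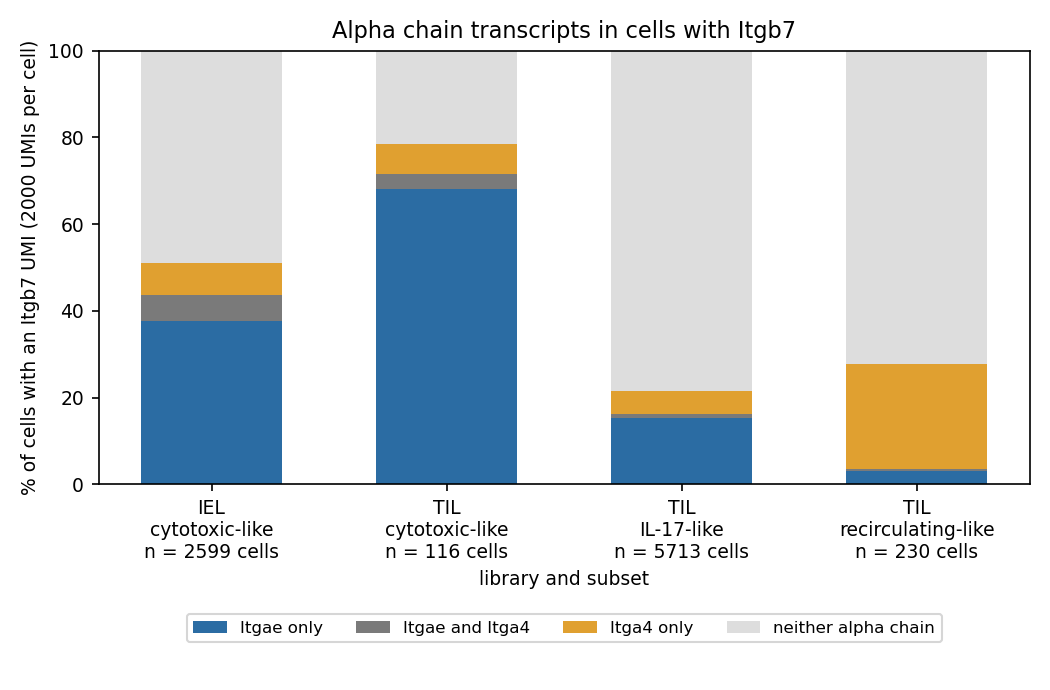
Cells with an Itgb7 UMI (2000 UMIs per cell) split by which α chain was also found, in 4 subsets, as a percentage of those cells with their number under each bar. Itgae is the only α chain in 68.1% of TIL cytotoxic-like and 37.8% of IEL cytotoxic-like cells, and neither α chain was found in 78.6% of IL-17-like cells.

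The rare Itgb8 transcript was unevenly spread. Of the 55 IEL cells with an Itgb8 UMI, 37 lay in cluster 7, whose leading genes include Klra7, Id3 and Tcf7. These were 2.07% of its 1785 IEL cells (1.46 to 2.85). Cluster 7 was named cytotoxic-like on a low marker score of 0.27. Itgav was found in 22 of the 37 and Tgfb1 in 29. In the TIL library 34 cells had Itgb8, of which only 8 were γδ T-like. Cluster 21, 84 TIL cells led by Tnfrsf4, Foxp3 and Il1rl1, held 12 of them (14.3%, 7.61 to 23.6), and 10 of the 12 also had Itgav, 10 had Tgfb1 and 10 had Foxp3 or Cd4. That cluster, unnamed here, carried transcripts of regulatory αβ T cells and had Itgav at 389 CPM and Tgfb1 at 482 CPM. Cluster 11 held a further 9 cells with Itgb8 (2.19%). Shares with Itgb8 are unthinned, as the gene was near the limit of detection.

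Cells with the CD8α transcript Cd8a had more of both retention chains. In the IEL library Itgae was at 305 CPM in 6928 cells with Cd8a and 236 CPM in 2160 without, Itga1 at 189 and 138 CPM, and Tgfb1 at 148 and 189 CPM. Itgb1 was at 11.9 CPM with Cd8a and 23.6 CPM without. In the TIL library the gap was wider, with Itgae at 373 CPM in 549 cells with Cd8a against 87.3 CPM in 10444 without, and Itga1 at 125 against 1.43 CPM. IL-17-like cells were 9732 of the 10993 TIL cells, and cytotoxic-like cells were 8887 of the 9088 IEL cells. The part of subset make-up in these gaps was not tested. When a cell had to hold Trdc or a γ constant segment and no Trac, 1999 IEL and 6949 TIL γδ T-like cells remained, with Itgae at 258 and 91.1 CPM, Itga1 at 167 and 4.01 CPM, Itgb7 at 197 and 492 CPM and Tgfb1 at 164 and 519 CPM. Itga4, at 90.6 CPM (85.4 to 96.0) in the IEL and 44.3 CPM (42.4 to 46.2) in the TIL library, passed the 2-fold rule in these cells (log2 -1.03), and the other 8 genes kept their direction and their side of it. Over all cells that met the rule, in any cluster, Itga4 was within 2-fold (-0.75).

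Beside each list below stands the same background: over all measured genes 11.5% were higher and 14.6% lower in TIL cells, with a median log2 ratio of -0.10. Among other integrin genes, both chains of LFA-1 (Itgal and Itgb2), a receptor for ICAMs, were higher in the tumor library. Of 14 other α chains 2 were measured: Itgal stood at 209 against 12.1 CPM (TIL against IEL, log2 4.11), and Itgax at 1.06 against 21.0 CPM (-4.30). Of 6 other β chains 2 were measured and both were higher in TIL cells, Itgb3 at 43.9 against 10.7 CPM (2.03) and Itgb2 at 129 against 48.7 CPM (1.41). In cytotoxic-like cells Itgal (1.35), Itgad (1.66) and Itgb2 (1.10) were higher in TIL cells too.
Of 26 genes of integrin activation and adhesion, 19 were measured, 1 was higher and 3 were lower in TIL cells, with a median of -0.21 beside -0.10 for all genes. Rap1b, a small GTPase that activates integrins, was at 537 against 235 CPM (1.19). The adaptors Fyb (59.3 against 414 CPM, -2.80), Skap1 (-1.60) and Apbb1ip (-1.35), which link Rap1 to integrins, were lower. Apbb1ip was also lower in TIL cytotoxic-like cells (-1.15).

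Of 18 genes for integrin ligands, 6 were measured, 4 were higher and 1 lower, with a median of 1.42 (all genes: 11.5% higher, 14.6% lower, median -0.10). Spp1, encoding the αv ligand osteopontin, was at 125 against 14.9 CPM (3.06), and Lamc1 (2.26) and Icam2 (1.75) were higher. Cdh1, encoding E-cadherin, the αEβ7 ligand, stood at 1.68 against 38.8 CPM (-4.53), but at 38.3 and 39.4 CPM in cytotoxic-like cells. Within the TIL library, Cdh1 was at 0.415 CPM in IL-17-like cells. The 7 epithelial markers, which include Cdh1 itself, summed to 86.3 CPM in IEL and 13.6 CPM in TIL γδ T-like cells. The part of free epithelial RNA in the Cdh1 values was not tested.

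The TGF-beta pathway genes follow by step. Of 13 genes for other ligands and activation, 3 were measured and all were higher in TIL cells: Mmp9, a protease that can release TGF-beta, at 40.7 against 0.0585 CPM (9.44, 8.09 to 11.32, on 4 IEL UMIs), Furin, which cleaves the TGF-beta precursor, at 364 against 123 CPM (1.57), and Tgfb3 at 54.6 against 18.8 CPM (1.54). The median of the 3 was 1.57, beside -0.10 for all genes, of which 11.5% were higher. Tgfb3 had the same ratio, 1.54, in cytotoxic-like cells. Of 6 receptor genes 2 were measured, with Tgfbr2 at 107 against 94.6 CPM (0.17) and the decoy receptor Bambi lower (-1.26).
Of 17 Smads and their inhibitors 11 were measured, 2 were higher and 1 lower, with a median of 0.50. Smad3, which carries the TGF-beta signal, was at 43.1 against 8.49 CPM (2.34) and the repressor Ski at 116 against 50.7 CPM (1.19), while Ldlrad4, an inhibitor of the signal, was at 94.0 against 312 CPM (-1.73). None of 10 measured in cytotoxic-like cells passed the rule there. Of 13 genes listed as TGF-beta targets in lymphocytes, 10 were measured, 2 were higher and 3 lower, with a median of 0.31, Rgs16 at 2.31 and Xcl1 (-4.50), Ahr (-2.50) and Ldlrad4 among the lower.

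The genes most alike in pattern to each chain were ranked by Pearson's r of log2(CPM + 10) over the 17 units (9 IEL and 8 TIL), which share libraries, so r is a description. Itgae was followed most closely by Appl2 (0.97), Rbbp5 and Tnfrsf1a, and Itga1 by Napsa (0.99), Dapk2 and Prag1. Itgav was followed by Pgm2l1 (0.91), Tgfb3 (0.90) and Sav1, Itgb1 by Smad3 (0.95), Agpat5 and Cpm, and Itgb5 by F2rl2 (0.99), Ly6g5b and Ckb. Itgb7 was followed by Diaph1 (0.94), Lat and Sh3bgrl3, and Tgfb1 by Epas1 (0.95), Ppme1 and Sppl2a. Itga4 and Itgb8 had no close match, the nearest being Tspan13 (0.80), Prkcb and Igtp for Itga4 and Klra5 (0.81), Klrb1a and Rbm15 for Itgb8. Among the 9 genes, Itgb5 with Itgb7 (0.90), Itgae with Itga1 (0.87) and Itgav with Tgfb1 (0.83) were most alike, and Itga1 with Itgb1 most opposed (-0.89).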

How the data were processed

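The authors deposited 1 matrix per library of raw UMI counts (whole numbers, genes by barcodes), which they had not normalized, per the file headers. Cell Ranger 6.1.1 and the mm10 build are named in the submitters' processing notes, and the strand setting and the rule for calling cells are not given in the sources used here. Each of the 2 groups is 1 library of single-cell 3' RNA sequencing.

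A barcode needed 500 genes, 1000 UMIs and no more than 10% mitochondrial UMIs to be kept. Both libraries were clustered together in Scanpy 1.11.5 (2000 variable genes, 30 principal components, 15 neighbours, Leiden resolution 1.0 with leidenalg 0.10.2), which gave 26 clusters. The 9 genes, all integrin and TGF-beta pathway genes and receptor segments were kept out of the variable genes. A cluster was given another cell type's name when at least 3 markers of that type reached 50 CPM and 4-fold and Cd3e was under 50% of its library's level. It was left unnamed for very low or very high UMI totals or when other types' markers outnumbered its own among its 10 leading genes. These naming rules were set after the data were seen. No doublets were removed, and a cluster of mixed markers and high UMI totals was left unnamed.

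UMIs were summed per library and class and given as CPM with exact Poisson intervals. Ratios have exact conditional binomial intervals, and shares have exact Clopper-Pearson intervals after thinning to 2000 UMIs per cell, for which 69 IEL and 50 TIL cells were too shallow. All intervals are at 95%. Units had at least 50 cells. The genes named were the 9, up to 4 per pathway list with the largest ratio, the 3 most alike to each of the 9 in pattern, and a few others picked after their values were seen. The genes, markers and lists were chosen with earlier results of these data known. The ratio intervals were tested on simulated Poisson counts, which hold counting error alone and no spread between cells or animals. Alternatives changed the cell filter, the choice of cells, the scaling, the thinning, the resolution and the call rule.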

Additional observations from a re-analysis of the deposited data

How the results depend on the processing

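With 1 library per group no replicate could be left out, and no alternative measures the spread between animals. No paired analysis was possible because each group has 1 library. Itgb8 and all pairs with it are limited by depth. A pair share of thinned cells misses cells in which a transcript was not drawn, while free RNA or doublets can raise it. Restricting both libraries to cytotoxic-like cells (404 TIL cells, without clusters 11 and 15) changed most results, as the report gives. The log2 ratio was then 0.95 for Itgae and 0.16 (0.02 to 0.30) for Itga1, each with the opposite sign. It was -0.060 (-0.64 to 0.46) for Itgb1, -0.27 (-3.35 to 1.63) for Itgb5 and -0.024 (-0.17 to 0.12) for Itgb7. The direction of these β chains was not resolved within counting error. For Tgfb1 the log2 ratio was 0.95, which was under 2-fold. The difference in share, TIL minus IEL, was then 25.1 percentage points for Itgae, -0.323 for Itga1, -3.99 for Itga4, -0.569 for Itgb1, 0.252 for Itgb5 and -0.401 for Itgb7. For pairs it was 7.91 for Itgae with Itgb7, -0.146 for Itga4 with Itgb1, -0.509 for Itga1 with Itgb1, 0.936 for Itgav with Itgb1 and -0.0227 for Itgav with Itgb5. Genes higher and lower in TIL cells numbered 224 and 322 there, against 728 and 922 over all γδ T-like cells. The counts were 1094 and 1757 with genes from 5 CPM, 485 and 451 from 50 CPM, and 1279 and 1709 at 1.5-fold. Thinning to 4000 UMIs and no thinning gave Itgb8 share differences of -0.200 and -0.521 and Itga4 with Itgb7 differences of -2.16 and -9.35, whose intervals no longer overlapped. No thinning gave -0.276 for Itgav with Itgb8. Itga4 with Itgb1 had overlapping intervals at 1000 UMIs (0.0461) and under the cell-wise rule (0.356). At Leiden resolution 2.0 the Tgfb1 ratio in cytotoxic-like cells was 1.03, past 2-fold. The cause was not tested for any of these. Over the looser and stricter cell filters, all cells passing the filter, median scaling, means over cells, removal of shared barcodes, removal of cells over 2 times the median UMI total, and clusters 11 and 15 or 11, 13 and 15 counted in (both added after the data were seen), the 9 genes kept their direction and their side of the 2-fold rule. With γδ T-like cells restricted to those meeting the cell-wise rule, also added after the data were seen, Itga4 was past 2-fold (-1.03).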
